A study of Homo sapiens with 42 samples.

Results

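The genes MPO, ELANE, PRTN3, AZU1, CTSG, BPI, MS4A3, SRGN and SERPINB1, whose products make up, pack or inhibit the contents of the neutrophil primary granule, were followed across 5 human acute myeloid leukaemia (AML) cell lines. They were chosen by gene name and make up 9 of the 60240 genes in the deposited table, and all 9 passed the filter on low values (at least 10 normalised counts in at least 3 libraries). The treated groups were SKM-1, OCI-AML3, KG-1, MOLM-14 and MOLM-13 cells that received decitabine (100 nM) daily, from day 0 to day 2. Decitabine is a cytidine analogue that is built into DNA and traps DNA methyltransferases, so that methylation is lost as cells divide. Each line was set against the same line given the solvent DMSO. RNA was taken at 72 hours in both arms, in 3 libraries per line and treatment. All groups carry the genotype label WT. The identity of MOLM-14 rests on sample labels, as the series' design text leaves this line out. Replicates came from wells seeded in duplicate or triplicate, per the labels' protocols, and p-values therefore cover only library-to-library spread, which may be technical.

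Primary, or azurophil, granules are packed with antimicrobial proteins at the promyelocyte stage of neutrophil development, and transcription of their genes is shut off as the cells mature further. Myeloperoxidase makes hypochlorous acid, the neutrophil serine proteases cut proteins of microbes and of tissue, and the proteoglycan serglycin holds these charged proteins in the granule. In AML, MPO protein is a routine diagnostic marker of myeloid blasts, and C/EBP factors, PU.1, RUNX1 and MYB are known regulators of several of these genes.

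Promoter sequences are shown for 4 genes, chosen only among the members for which a promoter entry was found. They are PRTN3, CTSG and MS4A3, whose decitabine responses differed most between lines among those members, and AZU1, which lies beside PRTN3. RefSeq's promoter table (GRCh38.p14) matched 5 of the 9 members, namely PRTN3, AZU1, CTSG, MS4A3 and SERPINB1. Each window holds 250 bases before and 50 bases after the annotated start, 5′ to 3′ on the strand of the gene. Capitals mark letters of a PU.1 core (GAGGAA, or TTCCTC on the other strand) or of a C/EBP palindrome (TTGCNNAA, or TTNNGCAA on the other strand). The windows are chr19:840749-841048 (plus strand) for PRTN3, chr19:827587-827886 (plus strand) for AZU1, chr14:24576201-24576500 (minus strand) for CTSG and chr11:60056415-60056714 (plus strand) for MS4A3.
PRTN3: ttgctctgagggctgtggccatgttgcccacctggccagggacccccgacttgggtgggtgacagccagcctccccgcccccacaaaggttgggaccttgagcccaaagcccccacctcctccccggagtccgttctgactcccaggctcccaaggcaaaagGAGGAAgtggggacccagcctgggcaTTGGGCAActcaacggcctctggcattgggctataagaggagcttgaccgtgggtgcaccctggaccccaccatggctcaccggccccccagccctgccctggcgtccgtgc
AZU1: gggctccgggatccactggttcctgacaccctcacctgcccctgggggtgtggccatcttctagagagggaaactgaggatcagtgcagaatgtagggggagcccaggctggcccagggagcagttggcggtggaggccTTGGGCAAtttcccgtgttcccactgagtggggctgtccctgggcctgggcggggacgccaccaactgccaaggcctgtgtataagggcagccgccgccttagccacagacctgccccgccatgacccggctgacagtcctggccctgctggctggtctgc
CTSG: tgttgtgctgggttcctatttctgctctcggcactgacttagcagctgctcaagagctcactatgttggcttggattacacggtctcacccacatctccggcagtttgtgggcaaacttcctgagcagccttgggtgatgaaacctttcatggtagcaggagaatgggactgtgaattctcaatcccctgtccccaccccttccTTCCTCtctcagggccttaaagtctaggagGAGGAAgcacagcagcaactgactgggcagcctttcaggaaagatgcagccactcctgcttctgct
MS4A3: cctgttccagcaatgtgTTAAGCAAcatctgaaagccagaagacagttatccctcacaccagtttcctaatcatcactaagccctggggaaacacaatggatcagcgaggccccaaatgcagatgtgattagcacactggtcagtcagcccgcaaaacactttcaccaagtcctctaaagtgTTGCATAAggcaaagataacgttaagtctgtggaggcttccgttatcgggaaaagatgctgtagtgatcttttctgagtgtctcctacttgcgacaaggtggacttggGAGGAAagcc
The PRTN3 window held the PU.1 core at position 163 and the C/EBP letters at position 189, counted from the first base shown. AZU1 had the same 8 letters, TTGGGCAA, at position 140 and no PU.1 core. CTSG had PU.1 cores at positions 205 and 235 and no C/EBP letters. MS4A3 had C/EBP letters at positions 18 and 183 and a PU.1 core at position 291, after the start. Of 35116 promoter windows of this length, 27.9% held the PU.1 core and 10.5% the C/EBP letters. The RUNX letters TGTGGT or ACCACA, present in 13.1% of windows, were in none of the 5, and the MYB letters AACNG or CNGTT were in all 5 and in 77.2% of windows. CpG dinucleotides, the targets of DNA methylation, numbered 9 in PRTN3, 9 in AZU1, 3 in CTSG, 6 in MS4A3 and 27 in SERPINB1, beside a median of 14 over all windows (quartiles 4 and 28). A match describes letters in the window and is not evidence of binding, and the AZU1 window lies inside the gene interval of the other annotation used here.

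Values are normalised counts, which are the authors' estimated counts per gene divided by DESeq2 normalization factors. Depth, estimated from the value of 1 read, ranged from 1.97 to 75.0 in units of 1e+06 reads in genes. Shallow libraries numbered 6, with 1.97 to 4.59 such units, and were replicate 2 of OCI-AML3, MOLM-14 and KG-1 in either arm. All libraries of MOLM-13 and SKM-1 had 42.9 to 75.0 units, and none of the other lines had more than 31.2, so depth and line cannot be told apart. Libraries of a group correlated at 0.987 to 0.992 in MOLM-13 and SKM-1 and at 0.918 to 0.975 in the other lines. Mitochondrial genes took more of each library after decitabine in 3 lines, namely MOLM-13 (18.2 to 19.1% after decitabine, against 12.5 to 14.1% in DMSO), SKM-1 (15.5 to 18.2% after decitabine, against 13.7 to 15.1% in DMSO) and MOLM-14 (10.5 to 11.5% after decitabine, against 8.06 to 9.09% in DMSO). The count of members called was 4 with and 4 without these genes in the total in SKM-1, and 3 with and 3 without in MOLM-13. In MOLM-14 it was 5 with and 7 without, where AZU1 (limma, adjusted p = 0.045) and CTSG (0.0308) were added. LYZ, CEBPA and SPI1, which mark the myeloid lineage, were present in every library. The RNA is from whole cultures, so fewer cells of a type and less RNA per cell cannot be told apart.

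The comparison of decitabine with DMSO asks how each granule gene responds in each line. SRGN was higher in all 5 lines, the only member called in each of them, while the serine protease genes PRTN3 and CTSG fell in SKM-1 and were not called lower in any other line. MPO, the peroxidase gene, rose in KG-1, MOLM-13 and MOLM-14, and MS4A3 rose in the same 3 lines. In MOLM-13 these calls and that of SRGN, and in MOLM-14 that of MPO, were lost when single libraries of the line were left out. Averaged over the 5 lines, 7 of 9 members rose and none fell (limma, adjusted p below 0.05), where 12% of 22168 genes were called higher and 7.52% lower. The 2 members without a call on this mean were ELANE and AZU1, of which AZU1 was called without KG-1 decitabine replicate 2 (0.27; limma, adjusted p = 0.0134).

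By line, KG-1 had 6 members called higher, beside 3.12% of all genes, and none lower, beside 0.663%. MOLM-14 had 5 called higher, beside 6.26% of all genes, and none lower, beside 4.77%. MOLM-13 had 3 called higher, beside 1.45%, and none lower, beside 1.67%. OCI-AML3 also had 3 called higher, beside 3.74%, and none lower, beside 1.64%. SKM-1 was split, with 2 members called higher, beside 5.7% of all genes, and 2 called lower, beside 3.32%. The median log2 difference of the 9 members was 1.30 in KG-1 (0.02 over all genes), 0.47 in MOLM-13 (0.08), 1.33 in MOLM-14 (0.01), 0.42 in OCI-AML3 (0.01) and -0.50 in SKM-1 (0.08). Seen by single libraries, all 9 members had every decitabine library above every DMSO library in MOLM-14, where 11.2% of all genes did. This held for 8 members in MOLM-13 (22.8% of all genes), 7 in KG-1 (10.2%), 4 in OCI-AML3 (10.1%) and 3 in SKM-1 (29.2%). In SKM-1, 5 members had every decitabine library below every DMSO library (18.9% of all genes).

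**Figure D1:**
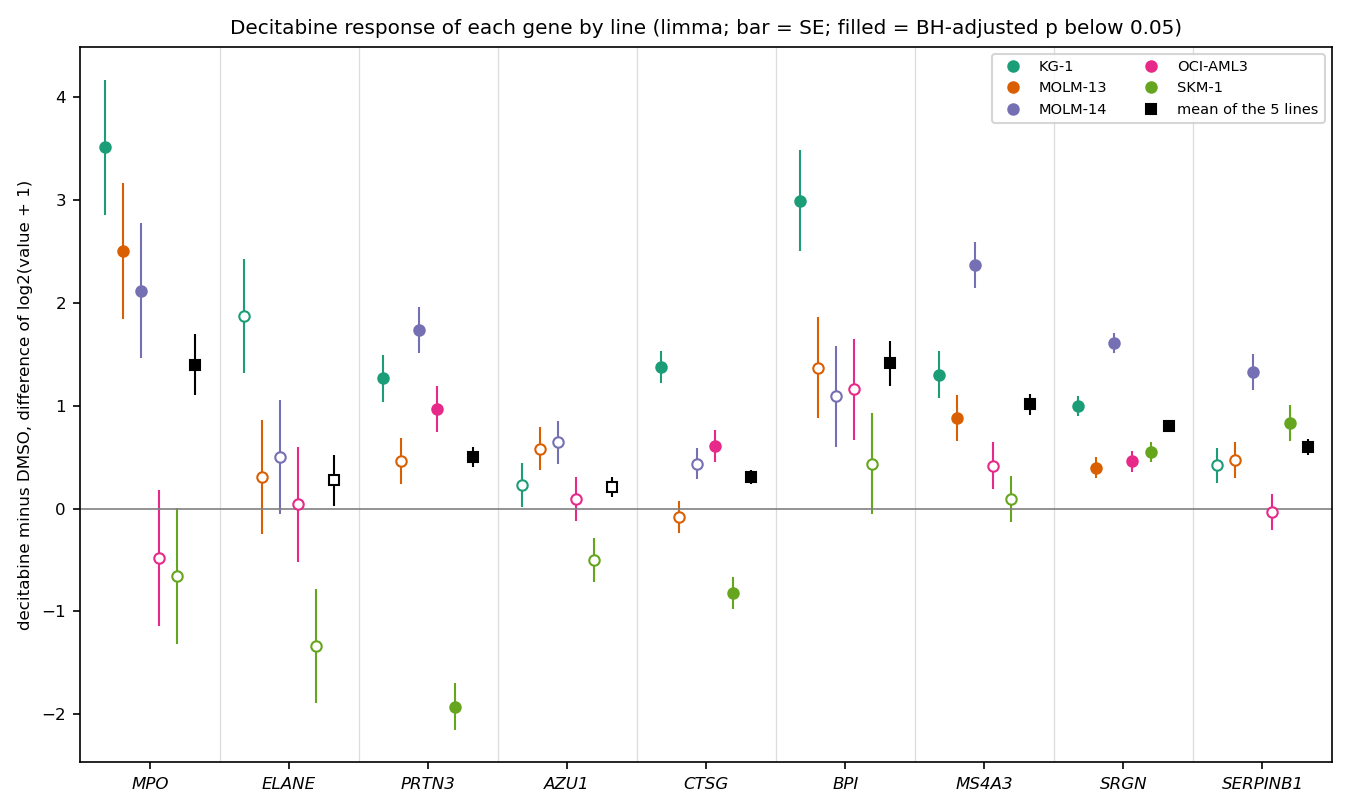
Decitabine minus DMSO difference of log2(value + 1) for each gene (x axis) in each line (coloured circles) and as the mean of the 5 lines (black squares); bars are limma standard errors, and filled symbols have an adjusted p below 0.05. SKM-1 lies below 0 for MPO, ELANE, PRTN3, AZU1 and CTSG and above 0 for BPI, MS4A3, SRGN and SERPINB1, while SRGN is filled in every line.

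**Figure D2:**
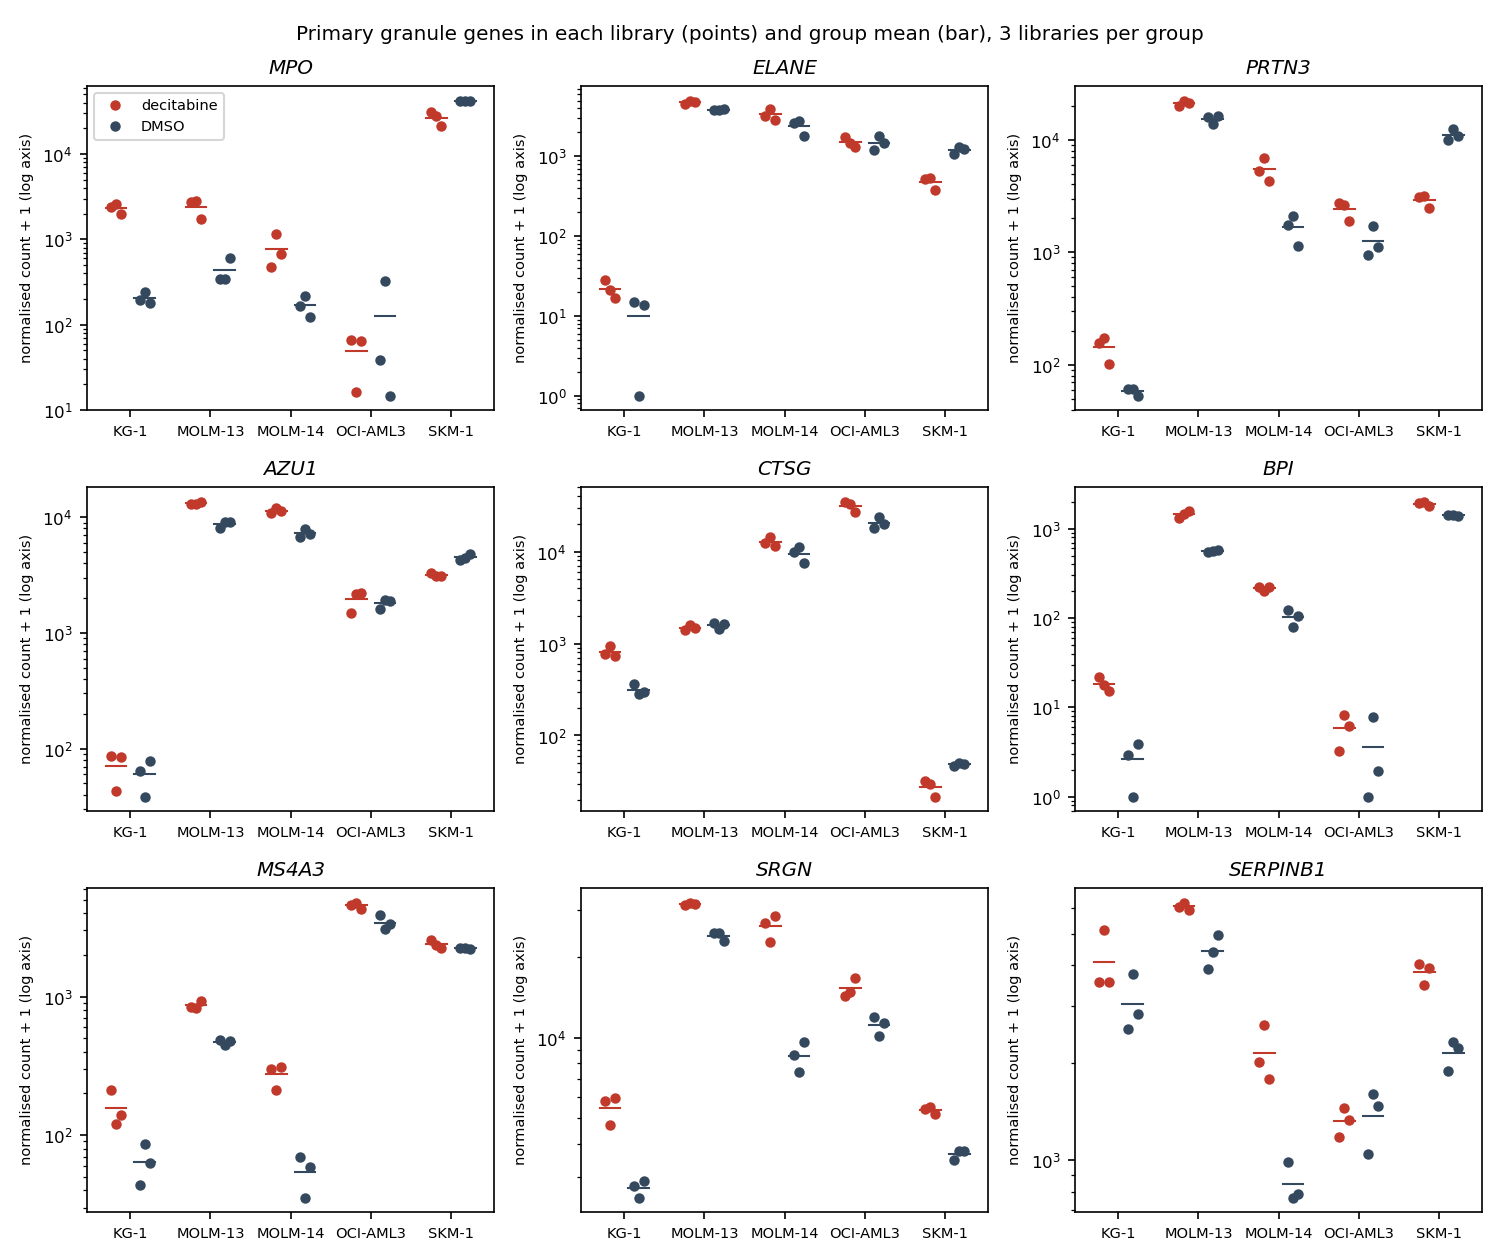
Normalised counts plus 1 (log axis, a different range in each panel) of the 9 genes in each of 30 libraries; points are libraries, short bars are means of 3 libraries, red is decitabine and dark blue is DMSO. The lines differ more in level than the treatments do for most genes, as for MPO, where the SKM-1 libraries lie between 21238 and 42233 and no other library is above 2792.

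MPO (chr17:58269856-58280935, minus strand, GRCh38) encodes the haem peroxidase that makes up much of the granule's protein. It had 2424, 2590 and 1970 normalised counts in the decitabine libraries of KG-1, against 193, 241 and 177 in DMSO. In MOLM-13 it had 2749, 2792 and 1736 after decitabine, against 345, 344 and 611 in DMSO, and the libraries did not overlap in either line. These are log2 differences of 3.51 (SE 0.66; limma, adjusted p = 0.00161) in KG-1 and 2.50 (adjusted p = 0.0357) in MOLM-13. MOLM-14 had 474, 1154 and 678 after decitabine, against 166, 218 and 123 in DMSO, a difference of 2.12 (limma, adjusted p = 0.0386). SKM-1 had far more MPO and lower values after decitabine, with 31212, 27953 and 21238 after decitabine, against 41591, 42233 and 41435 in DMSO. All 3 decitabine libraries of SKM-1 were below all DMSO libraries. Yet the log2 difference of -0.66 was not called with the shared spread (limma, adjusted p = 0.779). It was called when SKM-1 was fitted alone (limma, adjusted p = 0.00655). TSPOAP1, next to MPO on the chromosome, rose in MOLM-14 by 1.00 (limma, adjusted p = 0.0163).

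OCI-AML3 had little MPO and 1 library that stood apart. Its decitabine libraries held 65.0, 15.2 and 63.2 normalised counts, against 37.4, 326 and 13.7 in DMSO, and the value of 326 belonged to the shallow DMSO replicate 2. The log2 difference was -0.48 (limma, adjusted p = 0.776), it was 0.78 (adjusted p = 0.468) without that library, and it was 1.45 (adjusted p = 0.0133) without the 6 shallow libraries. In DMSO, the lines ranked SKM-1, MOLM-13, KG-1, MOLM-14 and OCI-AML3, from a mean of 41753 ± 423 to 126 ± 174 normalised counts (SD, n = 3), a ratio of 332. SKM-1 was above each of the other lines. MOLM-13 and KG-1 (limma, adjusted p = 0.202), KG-1 and MOLM-14 (0.765) and MOLM-14 and OCI-AML3 (0.0691) were not called apart. The fit uses 1 spread for all lines, and the log2 SD in DMSO was 2.29 in OCI-AML3, 0.48 in MOLM-13 and 0.23 in KG-1. The DMSO libraries of MOLM-13 (344 to 611) all lay above those of KG-1 (177 to 241). On the mean of the 5 lines MPO was higher by 1.40 (SE 0.30; limma, adjusted p = 0.00115), and without KG-1 that mean was 0.87 (adjusted p = 0.101). The rise in MOLM-13 lost its call when any MOLM-13 library except DMSO replicate 3 was left out (adjusted p 0.0717 to 0.164), and the rise in MOLM-14 when any of its libraries except decitabine replicate 1 was left out (0.0607 to 0.158). Both were also lost by limma under quantile normalization (adjusted p = 0.0898 in MOLM-13 and 0.0622 in MOLM-14) and with no filter on low values (0.0592 in MOLM-13 and 0.0661 in MOLM-14), and the one in MOLM-14 when that line was fitted alone (0.0501).

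AZU1, PRTN3 and ELANE lie in a row on the plus strand of chromosome 19, over a span of 31151 bp, at chr19:825097-832018, chr19:840960-848175 and chr19:851014-856247 (GRCh38). ELANE and PRTN3 encode neutrophil elastase and proteinase 3, and AZU1 encodes azurocidin, a protease homologue without catalytic activity. Across the 10 group means, ELANE and AZU1 had a Pearson correlation of 0.96, PRTN3 and AZU1 of 0.93 and ELANE and PRTN3 of 0.91. The points share lines, so these values describe 10 group means and carry no test. The gene before the row, PLPPR3, fell in SKM-1 by 0.88 (limma, adjusted p = 0.0149), and the gene after it, the azurophil granule protease CFD (complement factor D), rose in MOLM-14 by 1.06 (adjusted p = 0.0011).

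PRTN3 gave the widest range of responses in the row. SKM-1 had 3111, 3136 and 2461 normalised counts after decitabine, against 9823, 12383 and 10799 in DMSO, a log2 difference of -1.92 (SE 0.23; limma, adjusted p = 1.25e-06). MOLM-14 had 5291, 6894 and 4280 after decitabine, against 1761, 2102 and 1136 in DMSO, a difference of 1.74 (adjusted p = 1.10e-05 by limma). Both arms were apart in both lines, in opposite directions. KG-1 had 154, 172 and 100 after decitabine, against 59.6, 59.8 and 52.4 in DMSO, a difference of 1.27 (limma, adjusted p = 0.000962) that was not called when KG-1 was fitted alone (adjusted p = 0.132). OCI-AML3 had 2747, 2634 and 1876 after decitabine, against 954, 1707 and 1111 in DMSO, a difference of 0.97 (limma, adjusted p = 0.0103) that was not called without DMSO replicate 1 (0.79, adjusted p = 0.0665) or when OCI-AML3 was fitted alone (adjusted p = 0.242). MOLM-13 had 20016, 22130 and 21140 after decitabine, against 15904, 13805 and 16293 in DMSO. There the libraries did not overlap, but the difference of 0.46 was not called with the shared spread (limma, adjusted p = 0.405) and was called when MOLM-13 was fitted alone (adjusted p = 0.00571). On the mean of the 5 lines PRTN3 was higher by 0.50 (limma, adjusted p = 0.000741), a call lost without KG-1 (0.31, adjusted p = 0.0543) or without MOLM-14 (0.19, adjusted p = 0.21).

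ELANE was not called in any line with the shared spread, and its arms lay farthest apart among the well-measured lines in SKM-1. There it had 522, 532 and 383 normalised counts after decitabine, against 1072, 1308 and 1227 in DMSO, with no overlap. The log2 difference of -1.34 was not called with the shared spread (limma, adjusted p = 0.163). It was called when SKM-1 was fitted alone (adjusted p = 0.000291, limma) and when KG-1 DMSO replicate 2, a shallow library with an ELANE value of 0, was left out of the shared fit (adjusted p = 2.19e-05). KG-1 held 27.3, 19.9 and 15.9 after decitabine, against 13.8, 0 and 12.9 in DMSO, and this difference of 1.87 was not called (limma, adjusted p = 0.062). It rests on KG-1 DMSO replicate 2, being 0.59 (adjusted p = 0.199) without that library and 2.53 (adjusted p = 0.00784) or 2.49 (adjusted p = 0.0102) without DMSO replicate 1 or 3, by limma. The other 3 lines had differences of 0.31, 0.50 and 0.04 in MOLM-13, MOLM-14 and OCI-AML3, none of them called. The decitabine libraries of MOLM-13 (4521 to 4978) and MOLM-14 (2847 to 3979) lay above their DMSO libraries (3762 to 3918 in MOLM-13 and 1775 to 2798 in MOLM-14), while those of OCI-AML3 overlapped.

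AZU1 was not called in any line with the shared spread, and its adjusted p was lowest in MOLM-14. There it had 10801, 12003 and 11254 normalised counts after decitabine, against 6741, 7922 and 7169 in DMSO, a log2 difference of 0.64 (limma, adjusted p = 0.0525) that was called when any KG-1 library except DMSO replicate 1, or OCI-AML3 decitabine replicate 1, was left out of the shared fit (0.0144 to 0.0474). MOLM-13 had 12917, 12956 and 13612 after decitabine, against 8136, 9168 and 9065 in DMSO, a difference of 0.58 (limma, adjusted p = 0.172). SKM-1 had lower values, with 3314, 3085 and 3120 after decitabine, against 4307, 4404 and 4776 in DMSO, a difference of -0.50 (adjusted p = 0.174, limma). None of these 3 lines had overlapping arms, and each difference was called when its line was fitted alone (adjusted p = 0.0319 in MOLM-14, 0.00134 in MOLM-13 and 0.000391 in SKM-1 by limma). The arms overlapped in KG-1 (42.4 to 84.6 after decitabine, 37.4 to 77.6 in DMSO) and in OCI-AML3 (1487 to 2210 after decitabine, 1598 to 1921 in DMSO).

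Within the row, the ratio of PRTN3 to ELANE was higher after decitabine in 3 lines and lower in SKM-1. MOLM-14 had 1.62 ± 0.115 PRTN3 counts per ELANE count after decitabine and 0.689 ± 0.057 in DMSO (SD, n = 3 each). OCI-AML3 had 1.60 ± 0.201 after decitabine and 0.839 ± 0.110 in DMSO (SD, n = 3 each). SKM-1 had 6.09 ± 0.292 after decitabine and 9.14 ± 0.335 in DMSO, and in none of these 3 lines did the arms overlap. In MOLM-13 the ratio was 4.43 ± 0.0177 after decitabine and 3.98 ± 0.270 in DMSO. In SKM-1 the AZU1 to ELANE ratio was 6.76 ± 1.23 after decitabine and 3.76 ± 0.346 in DMSO, and the PRTN3 to AZU1 ratio was 0.915 ± 0.116 after decitabine and 2.45 ± 0.312 in DMSO. A 3 against 3 exact permutation test cannot go below p = 0.10, and none was run on these ratios. KG-1 is left out because its ELANE values lie near the value of 1 read in the shallow libraries.

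**Figure D3:**
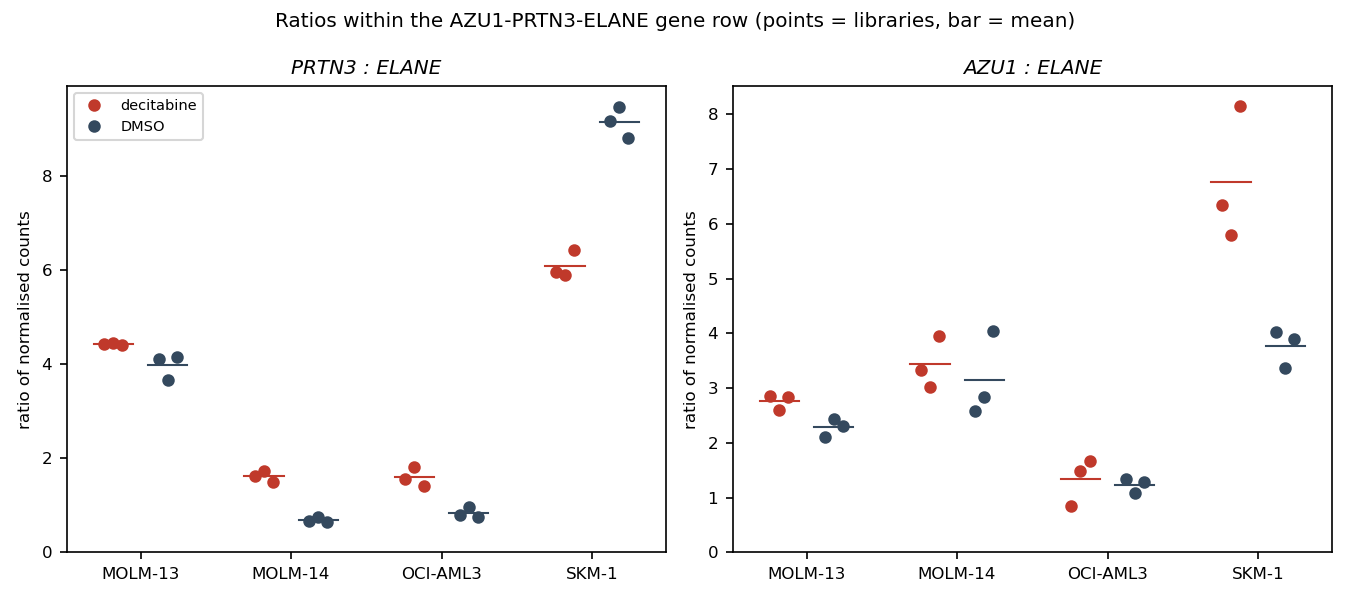
Ratio of normalised counts of PRTN3 to ELANE (left) and AZU1 to ELANE (right) in each library of 4 lines; points are libraries, bars are means of 3, red is decitabine and dark blue is DMSO. The PRTN3 to ELANE ratio is above its DMSO values after decitabine in MOLM-13, MOLM-14 and OCI-AML3 and below them in SKM-1.

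The DMSO levels of the row had MOLM-13 at the top and KG-1 at the bottom for each of the 3 genes. PRTN3 ran from 15334 ± 1339 in MOLM-13 to 57.2 ± 4.22 in KG-1, ELANE from 3849 ± 79.3 to 8.88 ± 7.71 and AZU1 from 8790 ± 568 to 59.6 ± 20.4 normalised counts (SD, n = 3 each). The order between these ends was SKM-1, MOLM-14, OCI-AML3 for PRTN3, MOLM-14, OCI-AML3, SKM-1 for ELANE and MOLM-14, SKM-1, OCI-AML3 for AZU1. Neighbours in the order that were not called apart by limma with the shared spread were MOLM-13 and SKM-1 (adjusted p = 0.0985) and MOLM-14 and OCI-AML3 (0.169) for PRTN3. For AZU1 they were MOLM-13 and MOLM-14 (0.343 by limma). For ELANE no neighbours above KG-1 were called apart. The MOLM-13 libraries nevertheless all lay above those of the next line in each of these genes.

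CTSG (chr14:24573522-24576260, minus strand), the gene of cathepsin G, lies apart from the other proteases, between the chymase gene CMA1 and the granzyme gene GZMH. Its order of lines differed too, with OCI-AML3 at the top (20643 ± 2735 normalised counts in DMSO) and SKM-1 at the bottom (47.5 ± 1.71; SD, n = 3 each), a ratio of 435. MOLM-14, MOLM-13 and KG-1 lay between in that order, and every pair of neighbours differed (limma, adjusted p at most 1.70e-06). CTSG rose in KG-1, with 763, 938 and 739 after decitabine, against 360, 280 and 298 in DMSO, a log2 difference of 1.37 (SE 0.15; limma, adjusted p = 1.86e-06). It rose in OCI-AML3, with 34783, 33266 and 26675 after decitabine, against 18192, 23593 and 20144 in DMSO, a difference of 0.61 (limma, adjusted p = 0.0177). That call was lost without decitabine replicate 1 (adjusted p = 0.0697) or replicate 2 (0.0669), or without DMSO replicate 1 (0.0854), with library weights (0.147) and when OCI-AML3 was fitted alone (0.214). It fell in SKM-1, with 30.9, 28.8 and 20.6 after decitabine, against 45.6, 48.9 and 47.9 in DMSO, a difference of -0.82 (limma, adjusted p = 0.000622). The arms were apart in these 3 lines. They were also apart in MOLM-14, at 11448 to 14556 after decitabine and 7522 to 11078 in DMSO, a difference of 0.44 that was not called (limma, adjusted p = 0.0707) and was called without DMSO replicate 2 (0.56, adjusted p = 0.0414). MOLM-13 overlapped, with 1415 to 1571 after decitabine and 1428 to 1660 in DMSO. The mean over lines of 0.30 (limma, adjusted p = 0.0023) was 0.04 without KG-1 (adjusted p = 0.799).

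BPI (chr20:38304123-38337505, plus strand) encodes the bactericidal/permeability-increasing protein, which binds lipopolysaccharide of Gram-negative bacteria. It rose in KG-1, with 20.6, 16.9 and 14.2 normalised counts after decitabine, against 1.96, 0 and 2.92 in DMSO, a log2 difference of 2.99 (SE 0.49; limma, adjusted p = 0.000364). The DMSO values are of the order of 1 to a few reads, so the size of that fold is poorly set, and the difference was not called when KG-1 was fitted alone (limma, adjusted p = 0.182). The lines with more BPI also had higher values after decitabine. MOLM-13 had 1330, 1446 and 1595 after decitabine, against 551, 566 and 569 in DMSO, a difference of 1.37 that was not called with the shared spread (limma, adjusted p = 0.162) and was called in MOLM-13 alone (adjusted p = 0.000217) and without OCI-AML3 DMSO replicate 2 (0.0343). MOLM-14 had 222, 201 and 220 after decitabine, against 121, 78.9 and 105 in DMSO, a difference of 1.09 (limma, adjusted p = 0.166). SKM-1 had 1936, 2000 and 1796 after decitabine, against 1427, 1426 and 1376 in DMSO, a difference of 0.44 (limma, adjusted p = 0.829 with the shared spread and 0.000721 in SKM-1 alone). No arms overlapped in these lines, whereas OCI-AML3 had 2.22, 7.27 and 5.24 after decitabine, against 0, 6.78 and 0.916 in DMSO. There the difference of 1.16 was not called, and it was 1.99 (limma, adjusted p = 0.00431) without DMSO replicate 2, whose value of 6.78 stands for about 1 read. Over the 5 lines BPI was higher by 1.41 (limma, adjusted p = 4.01e-05). In DMSO SKM-1 was highest, then MOLM-13 and MOLM-14, and only the lowest pair, OCI-AML3 above KG-1, did not differ (limma, adjusted p = 0.881). Exons of BPI overlap those of AL359555.3 on the same strand by 168 bp and of AL359555.1 on the other strand by 79 bp, and how strand was treated in counting was not given in the sources used here.

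MS4A3 (chr11:60056587-60071128, plus strand) encodes a 4-transmembrane protein of granulocyte and monocyte progenitors and lies beside MS4A2, the gene of the IgE receptor's beta chain. Its rise was largest in MOLM-14, with 299, 211 and 310 normalised counts after decitabine, against 68.4, 34.4 and 57.4 in DMSO, a log2 difference of 2.37 (SE 0.23; limma, adjusted p = 1.08e-07). KG-1 had 212, 119 and 138 after decitabine, against 42.7, 85.2 and 62.2 in DMSO, a difference of 1.30 (limma, adjusted p = 0.00067) that was not called when KG-1 was fitted alone (adjusted p = 0.22). MOLM-13 had 835, 824 and 931 after decitabine, against 481, 444 and 477 in DMSO, a difference of 0.88 (limma, adjusted p = 0.0293). The arms were apart in all 3 lines, and the MOLM-14 DMSO value of 34.4, from a shallow library, stands for about 3.42 reads. The highest levels were in OCI-AML3, with 4582, 4757 and 4295 after decitabine, against 3849, 3059 and 3336 in DMSO, and the difference of 0.42 was not called (limma, adjusted p = 0.333). SKM-1 overlapped at 2249 to 2569 after decitabine and 2219 to 2259 in DMSO, a difference of 0.09. The DMSO order was OCI-AML3, SKM-1, MOLM-13, KG-1 and MOLM-14, from 3415 ± 401 to 53.4 ± 17.4 (SD, n = 3 each), and KG-1 and MOLM-14 did not differ (limma, adjusted p = 0.412). MS4A2 also rose in MOLM-14, by 2.51 (limma, adjusted p = 0.00305). The MOLM-13 call was lost when any 1 library of that line was left out (adjusted p 0.0671 to 0.129).

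SRGN (chr10:69088106-69104811, plus strand), the gene of serglycin, is also used by other blood cells with secretory granules. It had the smallest standard error of the 9 members, and its arms did not overlap in any line. MOLM-14 had 26865, 22882 and 28652 normalised counts after decitabine, against 8624, 7441 and 9596 in DMSO, a log2 difference of 1.61 (SE 0.10; limma, adjusted p = 5.38e-11). KG-1 had 5763, 4711 and 5914 after decitabine, against 2769, 2511 and 2895 in DMSO, a difference of 1.00 (limma, adjusted p = 2.59e-07). SKM-1 had 5390, 5468 and 5186 after decitabine, against 3476, 3744 and 3758 in DMSO, a difference of 0.55 (limma, adjusted p = 0.000381). The smaller rises were in OCI-AML3, by 0.46 (14274 to 16718 after decitabine, 10091 to 11936 in DMSO; limma, adjusted p = 0.00505), and in MOLM-13, by 0.40 (31500 to 31993 after decitabine, against 22995 to 24609 in DMSO; adjusted p = 0.0228). The MOLM-13 call was lost when any 1 library of that line was left out (adjusted p 0.0729 to 0.0917) and under quantile normalization (0.29; limma, adjusted p = 0.412), and the OCI-AML3 call when that line was fitted alone (adjusted p = 0.239). On the mean of the lines SRGN was higher by 0.80 (limma, adjusted p = 1.64e-12). VPS26A, next to SRGN on the chromosome, was lower in MOLM-13 (-0.43, limma adjusted p = 0.0358) and higher in SKM-1 (0.48, adjusted p = 0.00648). The DMSO order was MOLM-13, OCI-AML3, MOLM-14, SKM-1 and KG-1, from 24066 ± 928 to 2725 ± 195 (SD, n = 3 each), with every pair of neighbours different (limma, adjusted p at most 0.00293).

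SERPINB1 (chr6:2832332-2842006, minus strand) encodes the cytosolic inhibitor of elastase, proteinase 3 and cathepsin G. It had the narrowest span of the 9 in DMSO, with 4405 ± 542 normalised counts in MOLM-13 and 844 ± 122 in MOLM-14 (SD, n = 3 each), a ratio of 5.22. KG-1, SKM-1 and OCI-AML3 lay between in that order, and all neighbours differed (limma, adjusted p at most 0.0213). It rose in MOLM-14, with 2011, 2619 and 1781 after decitabine, against 984, 765 and 784 in DMSO, a log2 difference of 1.33 (SE 0.17; limma, adjusted p = 1.16e-05). It rose in SKM-1 as well, with 4021, 3468 and 3918 after decitabine, against 1881, 2322 and 2221 in DMSO, a difference of 0.83 (limma, adjusted p = 0.00201). In SKM-1 the inhibitor's RNA was therefore higher where that of PRTN3 and CTSG was lower after decitabine. MOLM-13 had 5924 to 6230 after decitabine and 3878 to 4961 in DMSO, a difference of 0.47 (limma, adjusted p = 0.184). The arms overlapped in KG-1 (difference 0.42) and OCI-AML3 (-0.03). SERPINB9, the next gene on the chromosome and an inhibitor of granzyme B, rose in SKM-1 by 3.98 (limma, adjusted p = 0.000294).

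The difference between lines was itself tested. The responses were unequal over the 5 lines for 6 of 9 members, namely MPO, PRTN3, CTSG, MS4A3, SRGN and SERPINB1, where 9.46% of all genes were called (limma F-test). SKM-1 set against the mean of the other 4 lines had 5 members with a lower response, beside 1.01% of all genes called lower. The differences of responses were -3.03 for PRTN3 (limma, adjusted p = 8.35e-09), -2.57 for MPO (0.0497), -1.41 for CTSG (4.57e-06), -1.15 for MS4A3 (0.00596) and -0.89 for AZU1 (0.0312). MOLM-14 had 4 members with a larger response than the other lines, beside 1.62% of all genes. These were MS4A3 by 1.70, PRTN3 by 1.54, SRGN by 1.01 and SERPINB1 by 0.91 on the log2 scale. KG-1 had 3, beside 1.92% of all genes, namely BPI by 1.98, CTSG by 1.34 and PRTN3 by 0.95. OCI-AML3 had smaller responses of SERPINB1 (-0.79) and SRGN (-0.43), beside 1% of all genes lower, and MOLM-13 of SRGN (-0.50), beside 0.952%.

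In DMSO the lines differed in all 9 genes (limma F-test over the DMSO groups), as did 77.9% of all genes. Per kb of exon, which allows genes to be compared, the leading transcript differed by line. In SKM-1, MPO made up 38.2% of the summed per-kb level of the 9 genes after decitabine and 38.8% in DMSO, and PRTN3 made up 12.7% after decitabine and 31.5% in DMSO. OCI-AML3 was led by CTSG, with 53.7% after decitabine and 50.4% in DMSO. SRGN led in KG-1 (61.2% after decitabine, 61.6% in DMSO), MOLM-13 (42.5% after decitabine, 43.9% in DMSO) and, after decitabine, MOLM-14 (46.3%). In MOLM-14 DMSO no gene led, as SRGN had 31.6% and CTSG 31.2%, and CTSG was above SRGN in 2 of the 3 libraries. In MOLM-14, CTSG held 20.1% after decitabine, beside a log2 difference of 0.44 in its own level and of 1.61 in that of SRGN. The 9 genes took 0.316 ± 0.00267% of all normalised counts in MOLM-14 after decitabine and 0.153 ± 0.00772% in DMSO (SD, n = 3 each). In KG-1 they took 0.0678 ± 0.00210% after decitabine and 0.0339 ± 0.00195% in DMSO, and in SKM-1 0.239 ± 0.0257% after decitabine and 0.343 ± 0.00552% in DMSO. The arms did not overlap in any line, and SKM-1 was the one with the lower share after decitabine.

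**Figure D4:**
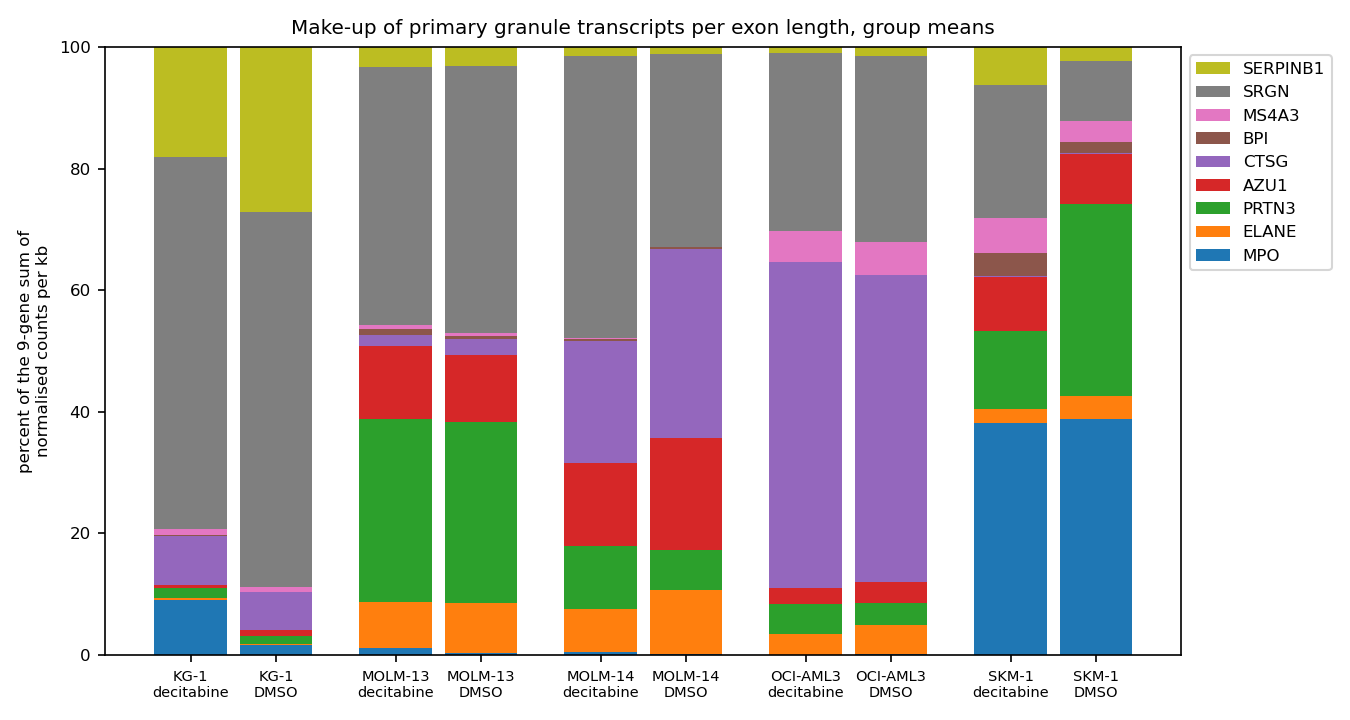
Share of each gene in the summed normalised counts per kb of exon of the 9 genes (percent), as means of 3 libraries for each line, decitabine left and DMSO right. MPO leads in SKM-1, CTSG in OCI-AML3 and SRGN in KG-1, MOLM-13 and decitabine-treated MOLM-14, while CTSG (31.2%) and SRGN (31.6%) are near equal in MOLM-14 DMSO, and the PRTN3 block of SKM-1 is 12.7% after decitabine and 31.5% in DMSO.

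Other azurophil granule genes were called higher on the mean of the 5 lines in 8 of 16 tested genes (of 20 listed) and lower in 1. Of all genes tested, 12% were called higher and 7.52% lower on that mean. The largest were CD68 (1.39), the fucosidase gene FUCA1 (1.14), the lysozyme gene LYZ (0.97) and the cathepsin D gene CTSD (0.58). These log2 differences on the mean were all called by limma. By line, CTSD was called only in MOLM-14 (1.10) and SKM-1 (0.70). CD68 was called only in KG-1 (2.12), MOLM-14 (1.71) and SKM-1 (1.49), and FUCA1 in every line but KG-1 (0.03). LYZ had 14572 to 15066 normalised counts in MOLM-13 after decitabine, against 6760 to 7312 in DMSO, and it rose in every line but SKM-1, which had 10090 to 10527 after decitabine, against 10713 to 10941 in DMSO. The defensin genes DEFA1, DEFA1B, DEFA3 and DEFA4 were listed at 0 in all libraries of OCI-AML3, KG-1, MOLM-14 and MOLM-13 and reached at most 9.38 in SKM-1. DEFA1, DEFA1B and DEFA3 are near-identical copies, so their values are uncertain.

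Of the genes of later granules (specific and gelatinase), 10 of 16 tested (of 22 listed) were called higher on the mean and none lower, beside 12% and 7.52% of all genes. The largest were MMP9 (1.66), CHI3L1 (1.59), HP (1.42) and CHIT1 (1.17) on the log2 scale. By line, HP was called in none, CHIT1 only in MOLM-14 (4.20) and MMP9 only in OCI-AML3 (2.75) and SKM-1 (3.23). CHI3L1, a chitinase-like protein, had 1615 to 1719 normalised counts in OCI-AML3 after decitabine, against 89.0 to 138 in DMSO. LCN2 was listed at 0 in every DMSO library of all 5 lines, and in every decitabine library of MOLM-13, MOLM-14 and OCI-AML3.

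The transcription factors of granule genes had 4 of 15 called higher and 1 lower on the mean, beside 12% and 7.52% of all genes. CEBPE, the C/EBP factor of late granulocyte development, was higher by 2.31 (limma, adjusted p = 6.20e-07). In KG-1 it had 148 to 181 normalised counts after decitabine, against 6.64 to 11.3 in DMSO, and in MOLM-13 81.0 to 87.3 after decitabine, against 6.17 to 7.74 in DMSO. It was high already in SKM-1, with 626 to 657 after decitabine and 313 to 354 in DMSO (difference 0.94, limma adjusted p = 0.486). GATA1, a factor of erythroid, megakaryocyte and eosinophil cells, rose by 1.75 and CEBPD by 0.43, and CEBPG fell by 0.27 on the mean. By line, GATA1 was called only in KG-1 (2.61) and SKM-1 (4.72). CEBPA (0.11; limma, adjusted p = 0.498) and SPI1, the gene of PU.1 (0.09; adjusted p = 0.567), were not called on the mean. CEBPA in SKM-1 had 1757 to 2024 after decitabine, against 2575 to 2845 in DMSO. Its decitabine libraries there all lay below its DMSO libraries, as did those of 18.9% of all genes in SKM-1. That line was picked after its values were seen.

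Inhibitors of granule proteases had 7 of 10 tested (of 12 listed) called higher and none lower on the mean, beside 12% and 7.52% of all genes. SERPINB2 was higher by 1.66, the cystatin gene CST7 by 1.48, SERPINB9 by 1.47 and SLPI by 0.98 on the log2 scale. By line, SERPINB2 was called only in KG-1 (3.26), SERPINB9 only in SKM-1 (3.98) and SLPI only in MOLM-14 (3.46). CST7 was called in every line but MOLM-13. CST7, whose product inhibits the protease that activates the granule serine proteases, had 695 to 809 normalised counts in KG-1 after decitabine, against 146 to 173 in DMSO. Genes of granule biogenesis, sorting and release had 7 of 20 called higher and 3 lower on the mean, beside 12% and 7.52% of all genes. The largest rises were of GATA2 (1.22), a progenitor transcription factor, and of TCIRG1 (0.70), UNC13D (0.51) and NBEAL2 (0.50). By line, GATA2 was called only in MOLM-14 (1.58) and SKM-1 (3.34). The median of this list was 0.06, beside 0.06 over all genes tested.

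Markers of other cell types moved in the same cultures. Eosinophil, basophil and mast cell markers were called higher in 7 of 11 genes in KG-1, beside 3.12% of all genes. Their summed level there was 7237 to 7568 normalised counts after decitabine, against 1651 to 1733 in DMSO. In SKM-1, 5 of 11 were called higher, beside 5.7% of all genes, with a sum of 17078 to 18843 after decitabine, against 2919 to 3525 in DMSO. There CLC was the most abundant. Of the same 11 markers, 2 were called higher in MOLM-14, beside 6.26% of all genes. In OCI-AML3 it was 1, beside 3.74%, and in MOLM-13 it was 0, beside 1.45%. Monocyte and macrophage markers were called higher in 7 of 9 tested genes in MOLM-14, beside 6.26% of all genes (sum 6016 to 8064 after decitabine, against 2447 to 3270 in DMSO). In SKM-1, 5 of 9 were called higher and 1 lower, beside 5.7% and 3.32% of all genes (sum 32321 to 33038 after decitabine, against 13210 to 15031 in DMSO). On the mean of the lines 9 of 11 and 7 of 9 markers of these lists were called higher and none lower, as were 4 of 8 lymphoid, 1 of 4 tested late neutrophil and 1 of 2 tested erythroid markers. Of all genes, 12% were called higher and 7.52% lower on this mean. By line, lymphoid markers were called only in SKM-1, where 3 of 8 were higher. Of 9 erythroid markers, 2 to 7 were listed at 0 in all libraries of a group, and their sum was at most 142. Late neutrophil markers were led by CSF3R, and LTF was listed at 0 in both arms of MOLM-14 and OCI-AML3. The part of these cell types in the granule gene results was not tested.

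The genes most like each member in level were found by Pearson correlation of the 10 group means of log2(value + 1), a description over groups that share lines. They were picked as the highest among the tested protein-coding genes (15127 with the members), so high values come in part from the picking. ELANE was closest to TIFAB (0.99), P2RY2 (0.99) and SIRPA (0.99), and AZU1 to P2RY2 (0.99), CD70 (0.99) and GSTK1 (0.98). PRTN3 was closest to IK (0.97), SLU7 (0.97) and SH3KBP1 (0.97), and CTSG to PRPF8 (0.98), ZNF398 (0.98) and TTC33 (0.97). MPO was closest to SLC35B1 (0.97), COL25A1 (0.96) and CHTF8 (0.95). BPI was closest to WASHC1 (0.97), UTS2 (0.97) and B3GNT5 (0.97), and MS4A3 to CEP170B (0.98), TUBG2 (0.98) and MOSPD3 (0.97). SRGN was closest to PIWIL4 (0.98), CCL23 (0.96) and COLQ (0.95), and SERPINB1 to MYOM1 (0.95), SERPINI1 (0.94) and CD200 (0.93). The other members were left out of this search. Among the members' 36 pairs the correlation ran from -0.86, for MPO and CTSG, to 0.96, with a median of 0.27.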

How the data were processed

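RNA-seq of 5 AML cell lines, in 30 libraries, was analysed from 1 table of 60240 genes. The deposited values are a signal per gene, which, going by the table's name, the authors made from estimated counts by dividing them by DESeq2 factors, with no log transformation and no scaling to gene length. Per the labels' protocols, total RNA was depleted of ribosomal RNA, made into stranded libraries and read as single ends of 50 bp. Tools named, without role or order, per the submitters' processing notes are STAR, Salmon 1.2.1, limma, featureCounts and DESeq2, with the build hg38. The annotation and the strand setting of the counting are not given in the sources used here. Columns of SKM-1 and MOLM-13 are named in the sample labels, and those of OCI-AML3, KG-1 and MOLM-14 were assigned from the line, the letter for the treatment and the replicate number in the column name. Of 42 labelled libraries of 7 lines, 12 had no column matched to them and were not analysed here, and 12 columns of HL-60, which belong to no labelled sample, were not used.

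Between 40.9% and 67.3% of low values were whole multiples of the value of 1 read (tolerance 0.02), so whole reads were not recovered and no count test was run. Depth is the column total over that value, and intervals for it were not computed. Values were analysed as log2(value + 1). This scale can understate changes of low genes, or overstate them where a shallow library holds a 0. ELANE in KG-1 had a difference of 1.87 with 1 added and of 0.90 with 8 added (limma, adjusted p = 0.0467 with 8). Genes at 10 or more in at least 3 libraries (22168) entered limma 3.58.1 (statmod 1.5.0, R 4.3.3) with 10 group means and 20 residual degrees of freedom; variances were moderated robustly with a trend, so that all libraries share 1 spread per gene. P-values were Benjamini-Hochberg adjusted within each contrast over all genes tested, and called below 0.05. The fit was tested on simulated data. A fit of 1 line alone used its 6 libraries.

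Coordinates and exon lengths came from GENCODE 29 (GRCh38), by unversioned identifier, for 58064 genes; figures and tables used Python 3.11.15 and pandas 2.3.3. Members and lists were chosen with earlier results of these data known. All 9 members are reported. Of each list the up to 4 genes called on the mean of the 5 lines with the largest change are named. The 3 protein-coding genes most correlated with each member are named too. Of the neighbouring genes that are not members, only those called in a line are given with values. LYZ, CHI3L1, CEBPE, CST7, CEBPA, SPI1, LCN2, CLC, CSF3R, LTF and the defensin genes were given levels or zeros after their values were seen. Alternatives were other pseudocounts, no filter, quantile normalization, scaling without mitochondrial genes, library weights, a replicate block, own-line fits, and leaving out shallow libraries, each library and each line.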

Additional observations from a re-analysis of the deposited data

Results flagged for a closer look

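For 6 of the 9 genes the decitabine response differed between the 5 lines by limma's F-test of the difference itself. MPO had an adjusted p of 0.00709, with log2 differences from -0.66 in SKM-1 to 3.51 in KG-1. PRTN3 had an adjusted p of 1.23e-07 by the same limma test, from -1.92 in SKM-1 to 1.74 in MOLM-14, with no overlap between arms in either line. CTSG had an adjusted p of 2.05e-06 by limma, from -0.82 in SKM-1 to 1.37 in KG-1. MS4A3 had an adjusted p of 0.000156 by limma, from 0.09 in SKM-1 to 2.37 in MOLM-14. SRGN had an adjusted p of 2.89e-06 by limma, with 1.61 in MOLM-14 and 0.40 in MOLM-13 as its extremes, and so rose in every line by unequal amounts. SERPINB1 had an adjusted p of 0.0052 by limma, from -0.03 in OCI-AML3 to 1.33 in MOLM-14. The causes of these differences were not tested.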

How the results depend on the processing

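Counts of members called depended most on whose spread was used. The share of all genes called was taken from the main fit only, so counts under the alternatives lack that share and cannot be weighed against it. With only a line's own 6 libraries, limma called 3 in KG-1 (against 6 with the shared spread), 8 in MOLM-13 (against 3), 8 in SKM-1 (against 4) and 0 in OCI-AML3 (against 3), where 4 had an unadjusted p under 0.05. Library weights gave 7 in MOLM-13 and 7 in SKM-1. Without the 6 shallow libraries there were 6 in MOLM-13 and 5 in OCI-AML3, and MPO in OCI-AML3 turned to 1.45, from the -0.48 of all libraries. In MOLM-13, no filter gave 1 and quantile normalization 1. Leaving out 1 library at a time gave 6 to 7 in KG-1, 0 to 4 in MOLM-13, 4 to 6 in MOLM-14, 1 to 4 in OCI-AML3, 4 to 5 in SKM-1, 7 to 8 on the mean, 6 to 8 for unequal responses and 9 to 9 for DMSO levels. The 0 in MOLM-13 came without decitabine replicate 1, 2 or 3 or DMSO replicate 1 or 2, with 5 or 6 members at an unadjusted p under 0.05 in limma. The lone 1 in OCI-AML3 came without DMSO replicate 1. The cause was not tested. Leaving out a line changed the count on the mean of the lines to between 5 (without KG-1) and 8 (without SKM-1).

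The replicate numbers are not shown to pair libraries: 6 of 15 correlations of same-numbered deviations were over 0.1, in a range of -0.0225 to 0.153. In OCI-AML3, MOLM-14 and KG-1, 6 of 6 libraries correlated best with their own number, a hint from the data and not the design. Replicate 2 is shallow in both arms of these lines, so pairing and depth cannot be told apart for it. Replicates 1 and 3 of these lines are not shallow. They correlated at 0.0703 to 0.153 with their own number and at -0.00413 to 0.0519 with each other. The reason was not tested. The best match was the own number for 2 of 6 libraries in MOLM-13 and 4 of 6 in SKM-1. With the replicate block the counts were 6 in KG-1, 4 in MOLM-13, 5 in MOLM-14, 3 in OCI-AML3, 5 in SKM-1, 8 on the mean, 7 for unequal responses and 9 for DMSO levels. The block took away the MPO calls in MOLM-13 (limma, adjusted p = 0.112) and MOLM-14 (0.107) and added AZU1 in MOLM-13, MOLM-14, SKM-1 and on the mean (0.000187 to 0.00149) and BPI in MOLM-13 (0.0485). Quantile normalization moved the median of all genes by -0.09 (log2). Depth limits BPI and ELANE in KG-1 and BPI in OCI-AML3, whose shallow libraries hold 0 to a few reads of them. MPO in OCI-AML3 had about 2.04 reads in the shallow decitabine library and 47.2 in the shallow DMSO library, more than in the other DMSO libraries (27.0 and 14.7).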

Other observations

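Relatives of the granule genes outside the neutrophil granule had 5 of 13 tested genes (of 19 listed) called higher on the mean of the 5 lines and none lower, beside 12% and 7.52% of all genes. EPX, the eosinophil's peroxidase and a relative of MPO, rose by 2.77 on the log2 scale (SE 0.22; limma, adjusted p = 1.15e-09). In SKM-1 it had 65.0 to 70.0 normalised counts after decitabine, against 0.283 to 1.95 in DMSO, the line in which MPO had lower values after decitabine. In MOLM-13 EPX had 114 to 150 after decitabine, against 38.1 to 45.5 in DMSO. That difference of 1.64 was not called (limma, adjusted p = 0.0681), nor was the 0.44 in OCI-AML3. The lines with a call of EPX were KG-1 (4.22), MOLM-14 (2.32) and SKM-1 (5.22). CETP, of the same lipid-binding fold as BPI, rose by 2.89 (limma, adjusted p = 4.84e-08), and in SKM-1 it had 50.4 to 66.4 after decitabine, against 3.42 to 6.63 in DMSO. PLTP, of that fold too, rose by 0.75 (limma, adjusted p = 0.0236) and the granzyme gene GZMA by 0.61 (limma, adjusted p = 0.00484) on the mean. By line, PLTP was called in none and GZMA only in OCI-AML3 (1.88).

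CLC, the Charcot-Leyden crystal protein of eosinophils and basophils, had 10479 to 11759 normalised counts in SKM-1 after decitabine, against 2318 to 2780 in DMSO. In KG-1 it had 113 to 146 after decitabine, against 0 to 5.35 in DMSO, while the arms of MOLM-13 were 14.4 to 17.1 after decitabine and 16.2 to 31.6 in DMSO.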
